A study of Mus musculus with 21 samples.

Results

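The 36 genes described here are interferon-response and antigen-presentation genes of the mouse, picked by symbol from the gene expression tables of a chemical reprogramming experiment. The set was chosen with earlier results of these data known, so its shares set against all genes describe it and are no independent test. The genes were followed through 21 RNA sequencing libraries in 10 groups. All 36 symbols were found among the 43436 genes listed in every table, and 33 of them passed the filter on low values that left 16650 genes for testing (2 or more libraries with an FPKM, a fragment count scaled by gene length and library depth, of 1 or more). Mx1, Mx2 and Rsad2 did not pass and are given as levels. By role the set holds 3 sensors of cytosolic RNA (Ddx58, Ifih1, Dhx58), 4 transcription factors (Irf1, Irf7, Irf9, Stat2), 19 antiviral effectors, 6 genes of ISG15 conjugation and ADP-ribosylation (Isg15, Usp18, Trim25, Parp9, Parp14, Dtx3l) and 4 genes of antigen processing and presentation (B2m, Tap1, Psmb8, Psmb9).

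In the study mouse embryonic fibroblasts (MEFs) were turned with small molecules into chemically induced pluripotent stem cells (CiPSCs), and the cells on the way were compared with extraembryonic endoderm (XEN) cells, the stem cells of the primitive endoderm lineage of the blastocyst. The MEFs (2 libraries) came from E13.5 embryos of the strain C57BL/6J-Tg(GOFGFP)11Imeg/RbrcxICR, which carries the GOFGFP reporter transgene, and the intermediate cells collected on day 12 (1 library), day 16 (2), day 20 (1), day 26 (1) and day 28 (1) of chemical treatment and the 7 CiPSC lines (1 library each; C1 to C3, G1, G3, N4, N6) have that same background. CeXEN cells (2 libraries) are XEN cells of wild-type ICR strain derived from blastocysts at embryonic day 3.5 in the chemical stage 1 medium VC6TFAE with bFGF at 20 ng/ml. The eXEN libraries are a single embryo-derived XEN cell line, also wild-type ICR, and the members of the pair differ in culture: replicate 1 was kept in the stage 1 medium VC6TF with bFGF at 20 ng/ml, and replicate 2 in traditional XEN medium. The embryonic stem cells (ESCs) are both labelled with embryonic day 3.5 and differ in strain, replicate 1 having the GOFGFP background and replicate 2 C57BL/6 (B6)N. Nothing in the labels says that replicates of MEF, day 16 or CeXEN came from separate cultures, so their own spread may be technical only. In the group comparisons each p-value uses a spread pooled over all groups with replicates. That spread includes differences between CiPSC lines, eXEN media and ESC strains. It may therefore not measure the spread between cultures of the groups compared.

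Depth was estimated from the bounds given with low FPKM values, and relative to ESC replicate 1 it ran from 0.401 in CiPSC line C3 to 1.569 in line N4. Marker sums followed the labels: 8 XEN markers summed to between 911 and 3920 FPKM in the intermediate and XEN libraries and to at most 91.0 elsewhere, and 8 pluripotency markers to between 4520 and 5730 FPKM in ESCs and CiPSCs. The pluripotency sum was 28.3 FPKM at day 12, 196 and 6.34 in day 16 replicates 1 and 2, 166 at day 20, 632 at day 26 and 345 at day 28. In MEF and XEN libraries it was at most 51.9. The part of this difference between the day 16 replicates in the results was not tested. The 12 fibroblast markers summed to 4760 and 14200 FPKM in the MEF replicates, 945 at day 12, 272 and 532 at day 16 and 17.8 at day 28. In bulk RNA, fewer cells of a type and less RNA per cell cannot be told apart.

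Type I and type III interferons act through receptors coupled to the kinases Jak1 and Tyk2 and through a complex that holds Stat2 and Irf9 and binds the interferon-stimulated response element in the promoters of its targets, while the response to interferon gamma uses a different, palindromic element. The targets include the RNA sensors and Irf7, which amplify the response, effectors that block viral entry, translation or release, and the peptide-loading machinery of MHC class I. Pluripotent stem cells are known to respond weakly to interferon and viral RNA and to carry little MHC class I at the surface.

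To show what the promoters of the set have in common, the 250 bases before each gene's start in the RefSeq promoter table (build GRCm38.p6, the assembly called mm10) were searched. A window was matched for 27 members, and 25 of these lie on the strand of a matching transcript. The core of the interferon-stimulated response element, GAAA and GAAA again after any 2 bases, searched on both strands with overlapping matches kept, was found in 9 of the 27 (33.3%), namely B2m, Bst2, Ifit1, Ifit3, Ifitm2, Isg15, Oas1a, Rsad2 and Stat2, against 936 of 27025 genes (3.46%). The palindrome TTCNNNGAA, which reads the same on both strands, was found in 6 of 27 (22.2%: Bst2, Ifit2, Irf1, Isg20, Oas1a and Psmb8) against 8.13% of all genes. Windows of 5 members are printed because these genes carry the patterns described further on: Isg15 and Ifit3 as genes under 1 FPKM in all XEN and pluripotent libraries, Bst2 and Oas1a as effectors called in several comparisons, and B2m as the gene that split the pluripotent cells from all others. They read 5′ to 3′ along the gene, with the matches to the response element core in capitals, a match to the reverse strand appearing as TTTC and TTTC. Matches to the palindrome are not marked, and that of Bst2 (TTCCAGGAA) lies within its printed window.
Isg15 (chr4:156200860-156200911, minus strand): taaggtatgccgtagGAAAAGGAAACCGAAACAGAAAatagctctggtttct
Ifit3 (chr19:34583358-34583431, plus strand): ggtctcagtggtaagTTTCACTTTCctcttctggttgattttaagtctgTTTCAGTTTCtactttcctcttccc
Oas1a (chr5:120907526-120907560, minus strand): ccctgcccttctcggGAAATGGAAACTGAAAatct
Bst2 (chr8:71537572-71537617, minus strand): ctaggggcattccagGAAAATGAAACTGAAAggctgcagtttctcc
B2m (chr2:122147533-122147572, plus strand): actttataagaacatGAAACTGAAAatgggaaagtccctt
Isg15 held 3 overlapping matches, Ifit3, Oas1a and Bst2 2 each and B2m 1. A match describes the letters only and was not tested as a binding site, and its absence says only that the letters are not in this window.

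Across the libraries the members did not share a single pattern. 6 members (B2m, Bst2, Ifitm2, Irf9, Stat2 and Trim25) were at or above 1 FPKM in every library, and the share of all genes that were was not counted. 11 members (Ifih1, Ifit1, Ifit2, Ifit3, Isg15, Mx1, Mx2, Parp14, Rsad2, Rtp4 and Usp18) stayed under 1 FPKM in all 4 XEN and all 9 pluripotent libraries, 8 of them among the 33 tested, where 6.61% of all tested genes did so. A further 5 (Ddx58, Dtx3l, Ifi35, Oas1a and Parp9) were at 1 FPKM or more in all pluripotent libraries and below it in all XEN libraries, against 4.4% of tested genes. The number of members at or above 1 FPKM was 34 at day 12, 18 and 28 in the MEF replicates, 18 to 29 from day 16 to day 28, 10 to 12 in the XEN libraries and 17 to 22 in the pluripotent ones. Of all tested genes, 82.9% were at or above 1 FPKM at day 12, also the largest share of any library. That share was 72.9% and 75.8% in the MEF replicates and 77.4% to 80.2% from day 16 to day 28. It was 67.3% to 73.3% in the XEN libraries and 77% to 81.2% in the pluripotent ones.

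**Figure D1:**
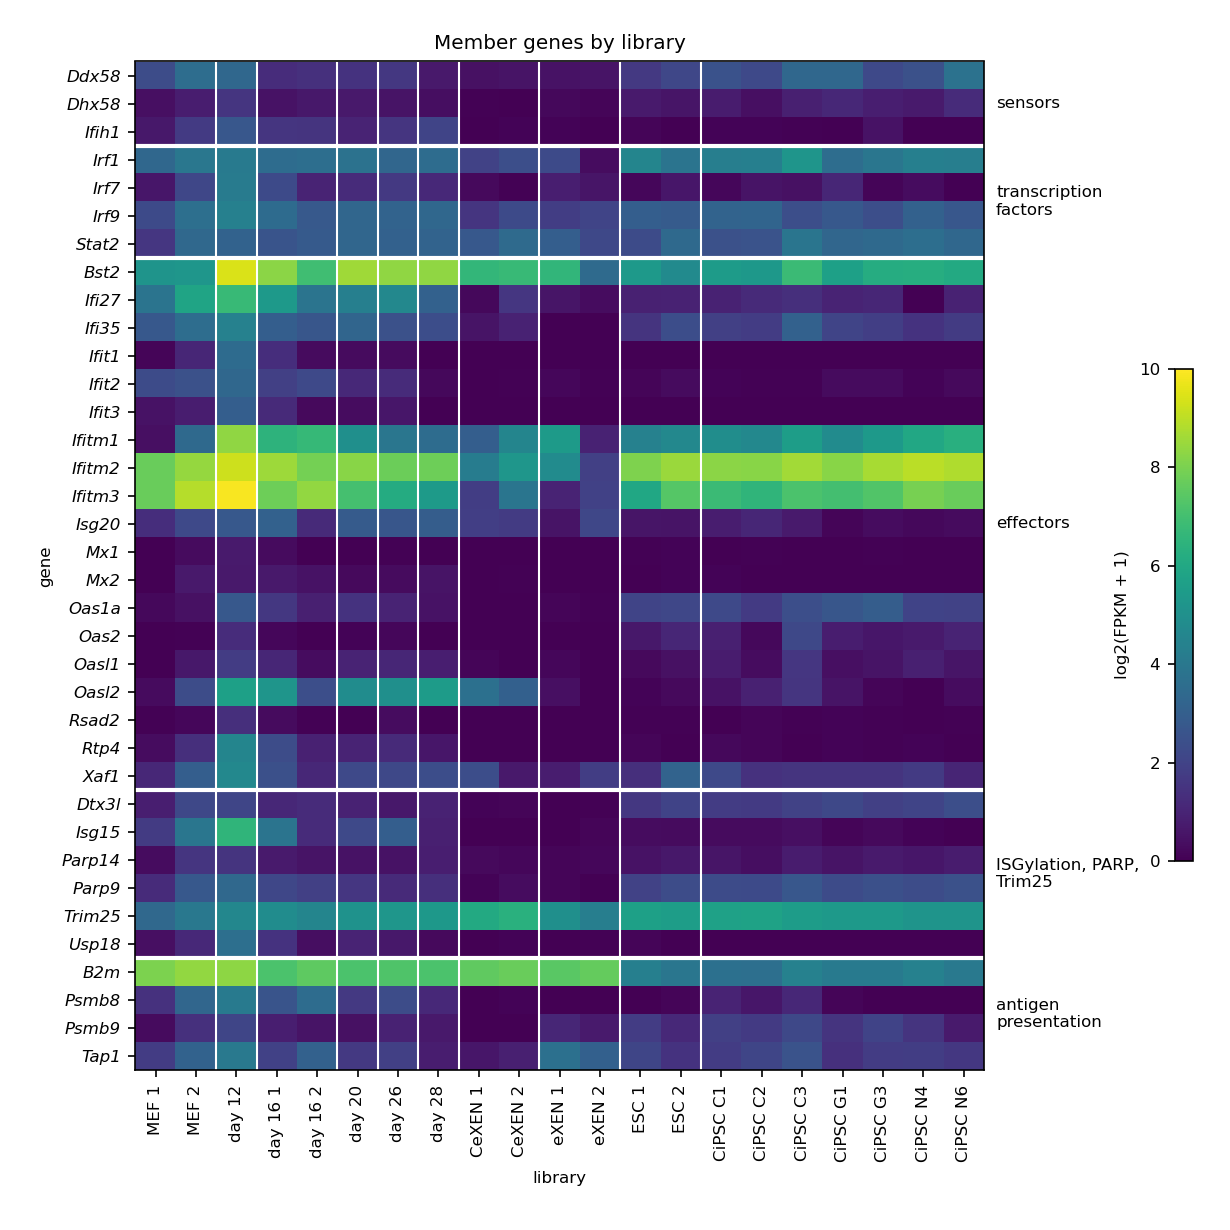
Level of the 36 members, as log2(FPKM + 1), in each of the 21 libraries (columns), with genes (rows) grouped by role. Day 12 is the brightest column, the 4 XEN columns hold the fewest expressed members (10 to 12), and the B2m row drops in ESCs and CiPSCs. Of all tested genes, 82.9% were at or above 1 FPKM at day 12 and 67.3% to 73.3% in the XEN libraries.

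The MEF replicates differed in every member. All 36 were higher in replicate 2 than in replicate 1, where 50.5% of all tested genes were, and the ratio had a median of 3.81 over the 32 members with a value above 0 in replicate 1. Ifitm1, a membrane protein of the family that restricts viral entry, was at 0.334 FPKM in replicate 1 and 9.77 in replicate 2. Isg15, the ubiquitin-like modifier, was at 2.37 and 14.0 FPKM, and Ifi27, an interferon-induced membrane protein, at 13.6 and 56.2. At the other end, Bst2 (tetherin, which holds budding virions at the cell surface) was at 35.1 and 36.8 FPKM, and B2m, the light chain of MHC class I, at 260 and 334. The macrophage markers, 18 genes, summed to 159 and 78.4 FPKM in these libraries with none at 0, and the fibroblast markers to 4760 and 14200. Their part in the difference was not tested.

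Day 12 held the highest value of all 21 libraries for 25 of the 36 members, and for 22 of the 33 tested, against 9.02% of all tested genes. At day 12 34 members were higher than in both day 16 libraries and 33 higher than at day 28, where 35.5% and 49.4% of tested genes were. Day 12 is a single library, so these values have no replicate check. Because the members were chosen with earlier results of these data known, these shares are descriptions only. Isg15 reached 92.1 FPKM at day 12, 6.56 times the next highest library, MEF replicate 2. It then stood at 13.4 and 1.34 FPKM in the day 16 replicates, 3.61 at day 20, 7.01 at day 26 and 0.814 at day 28. The estimated number of fragments behind these values was 754 at day 12, 6 at day 28 and at most 2 in any XEN or pluripotent library. Usp18, the protease that removes ISG15 from its targets, stood at 11.4 FPKM at day 12 and at most 1.78 in any other library. Irf7, the factor that amplifies interferon production, was at 17.0 FPKM at day 12 and at most 3.72 elsewhere.

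The effectors were divided, with Oas1a, Oas2 and Isg20 highest in other libraries (6.64 FPKM in CiPSC line G3, 3.52 in CiPSC line C3 and 7.69 in day 16 replicate 1, against 5.77, 1.40 and 5.70 at day 12). Rtp4 was at 22.2 FPKM at day 12 against a next highest 3.96 in day 16 replicate 1. Ifit1 and Ifit3, which recognise viral RNA ends or assist in it, were at 10.3 and 6.95 FPKM against at most 1.49 and 1.29. The dynamin-like GTPase Mx1 was at 0.672 FPKM against 0.239 in MEF replicate 2, and Mx2 at 0.60 against 0.597 there, a ratio of 1.01. Rsad2 (viperin) was at 1.52 FPKM at day 12 and at most 0.264 elsewhere. Among abundant members, Ifitm3 was at 967 FPKM at day 12 against 474 in MEF replicate 2, Bst2 at 697 against 381 at day 20, and Ifitm2 at 601 against 498 in CiPSC line N4. Over the 36 members the median ratio of day 12 to the highest other library was 1.59, and 11 ratios were above 2. Members whose highest library was another included B2m (MEF replicate 2), Trim25 (CeXEN replicate 2), Irf1 and Stat2 (CiPSC line C3) and Ddx58 (CiPSC line N6).

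**Figure D2:**
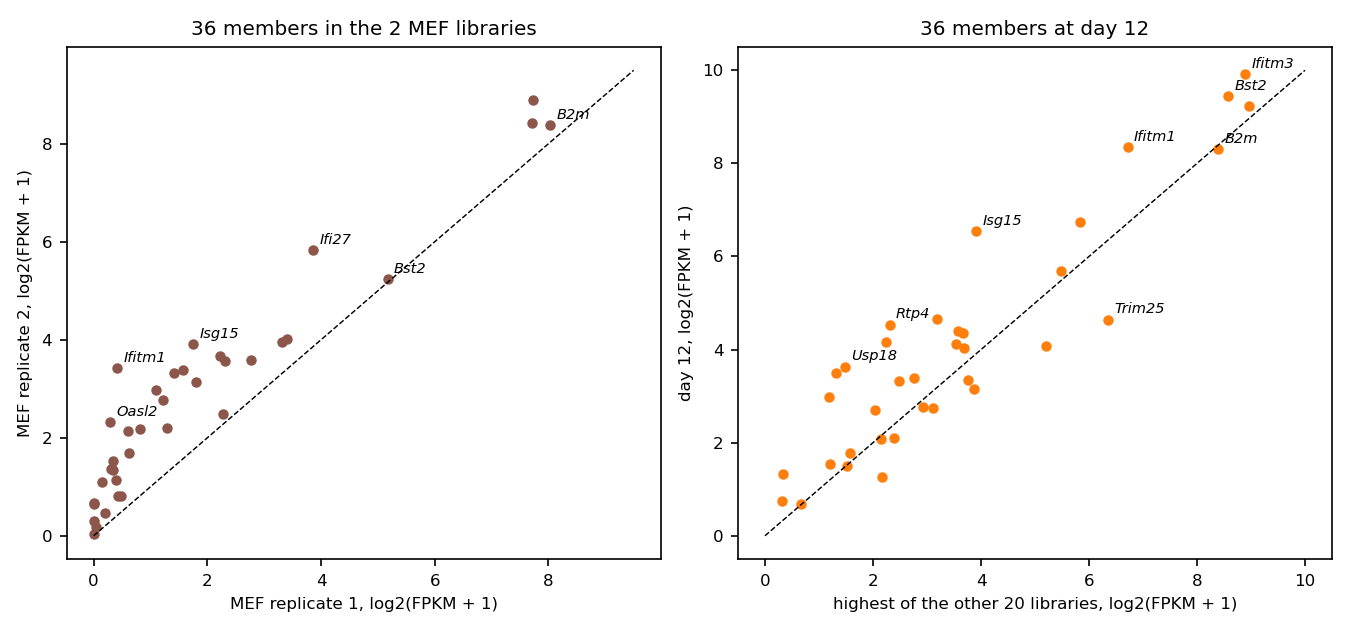
Left: each member in MEF replicate 1 against MEF replicate 2; right: the highest of the other 20 libraries against day 12, all as log2(FPKM + 1), with the dashed line marking equal values. All 36 points lie above the line on the left, and 25 lie above it on the right.

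Other members stayed expressed through the intermediate stage. In the order day 12, day 16 replicates 1 and 2, day 20, day 26 and day 28, Bst2 was at 697, 304, 122, 381, 326 and 326 FPKM. Oasl2 was at 50.8, 35.8, 4.35, 27.8, 30.8 and 43.5 FPKM, so that both genes were lowest in day 16 replicate 2. Trim25 ran the other way from most members, at 24.0, 28.1, 22.4, 33.4, 36.9 and 38.8 FPKM. Irf9, the DNA-binding partner of Stat2, was at 19.4 FPKM at day 12 and between 5.90 and 10.2 afterwards, Ifi35 at 20.2 and between 4.09 and 8.60, and Xaf1, an antagonist of the apoptosis inhibitor XIAP, at 24.1 and between 1.16 and 4.47. Irf1 held between 8.80 and 15.8 FPKM in all 6 libraries, and B2m between 141 and 182 FPKM after 315 at day 12.

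The partners of B2m in peptide supply were less steady. Psmb8 was at 16.4 FPKM at day 12, 4.99 and 10.6 at day 16, 2.15 at day 20, 3.98 at day 26 and 1.24 at day 28. Tap1 was at 15.4 FPKM, then 2.80 and 7.59, 2.17, 2.73 and 0.742 in the same order. Both were higher in day 16 replicate 2 than in replicate 1, the opposite of Isg15, Irf7 and Oasl2. Psmb9, whose listed span overlaps that of Tap1 on chromosome 17, reached 3.24 FPKM at day 12 and 3.44 in CiPSC line C3. Parp9 was at 9.53 FPKM at day 12 and between 1.28 and 3.33 afterwards, Ifit2 at 9.02 and between 0.147 and 3.57, and Ifih1 at 5.51 and between 0.968 and 3.12. Lower members were Dhx58 (LGP2, a regulator of the other RNA sensors), Parp14 and Oasl1, which peaked at 1.91, 1.88 and 2.46 FPKM.

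From day 12 to day 28 a linear trend was fitted to the 6 intermediate libraries and expressed as the log2 change over 16 days. No member and no other gene was called by limma (0% of 16650; smallest adjusted p 0.175), while 12 members were at an unadjusted p under 0.05, against 20.1% of all tested genes. The slope was negative for 29 of 33 members, with a median of -1.20 against -0.01 for all tested genes. The steepest slopes were those of Ifitm1 (-4.63 ± 0.42, SE) and Ifitm3 (-4 ± 0.45). Ifitm1 stood at 327 FPKM at day 12, 87.9 and 104 at day 16, 31.0 at day 20, 14.1 at day 26 and 10.6 at day 28. Ifitm3 stood at 967, then 222 and 330, 130, 69.7 and 42.1 FPKM in the same order. The positive slopes were those of Trim25 (0.75 ± 0.17), Oasl2 (0.59 ± 1.29), Isg20 (0.45 ± 0.77) and Stat2 (0.26 ± 0.32). Fibroblast markers summed to 945 FPKM at day 12 and 17.8 at day 28, and their part in these slopes was not tested.

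Transcripts of the interferon genes looked up were scarce. The list of 11 ligand genes held Ifna1, Ifna2, Ifna4 and Ifna5 and no other Ifna gene. These 11 summed to at most 4.10 FPKM, at day 12, of which 3.83 was Ifnk, a type I interferon of epithelial cells. Ifnk stood at 0 in both MEF libraries, at 1.35 and 1.03 FPKM at day 16 and at 0.626 at day 28. It was the only listed ligand to pass the filter on low values and rose from MEF to day 16 by 1.13 ± 0.17 log2 units (limma adjusted p = 0.000225).

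Between MEFs and day 16, where the XEN-like intermediate is compared with the starting cells, 3 members rose and 1 fell (12.1% of 33), while 20.7% of all tested genes were called (13.3% higher, 7.41% lower). Calls here and below are limma's at an adjusted p under 0.05 and a log2 change of at least 1. Overlap between groups is stated here and below for called members, where a call already makes a gap likely. The share of all genes without overlap was not counted in any comparison. The median over the members was 0.09, against 0.22 over all genes tested. Bst2 was at 35.1 and 36.8 FPKM in MEFs and at 304 and 122 at day 16, a rise of 2.39 ± 0.73 log2 units (adjusted p = 0.0248). Oasl2, an enzymatically active relative of the oligoadenylate synthetases, was at 0.225 and 4.01 FPKM in MEFs and 35.8 and 4.35 at day 16 (2.50 ± 0.76, adjusted p = 0.0238). Ifitm1 was at 0.334 and 9.77 FPKM in MEFs and 87.9 and 104 at day 16 (4.67 ± 1.14, adjusted p = 0.00694). Day 16 replicate 1 was above replicate 2 for 25 of the 36 members, where 40.5% of tested genes were. The groups did not overlap for Bst2, Oasl2 or Ifitm1, though the higher MEF and the lower day 16 value of Oasl2 nearly met. Ddx58 (RIG-I), a sensor of RNA ends, fell from 3.95 and 10.9 FPKM to 1.41 and 1.64 (-1.61 ± 0.51, adjusted p = 0.0293), also without overlap.

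Among the other 29 tested members, B2m (-0.88 ± 0.26, adjusted p = 0.0203) and Trim25 (1.00 ± 0.28, adjusted p = 0.0146, just under the fold limit before rounding) passed the p threshold only. The transcription factors lay between -0.06 (Irf1) and 0.24 (Stat2), and Isg15 at -0.29 ± 0.66. Of 16 genes for interferon receptors, kinases and their regulators, 2 rose (Socs3 by 3.01 ± 0.58 and Ifnlr1 by 1.13 ± 0.26) and Jak1 fell (-1.42 ± 0.21). Socs3, a feedback inhibitor of cytokine signalling, went from 10.1 and 25.5 FPKM to 214 and 88.0. Each of the 4 calls was lost when some library was left out: the count was 1 without day 16 replicate 1, 7 without day 16 replicate 2, 0 higher and 3 lower without MEF replicate 1, and 5 higher and 0 lower without MEF replicate 2. With quantile normalization 3 members rose and 2 fell, and over all genes 1558 rose and 1758 fell in place of 2219 and 1233.

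**Figure D3:**
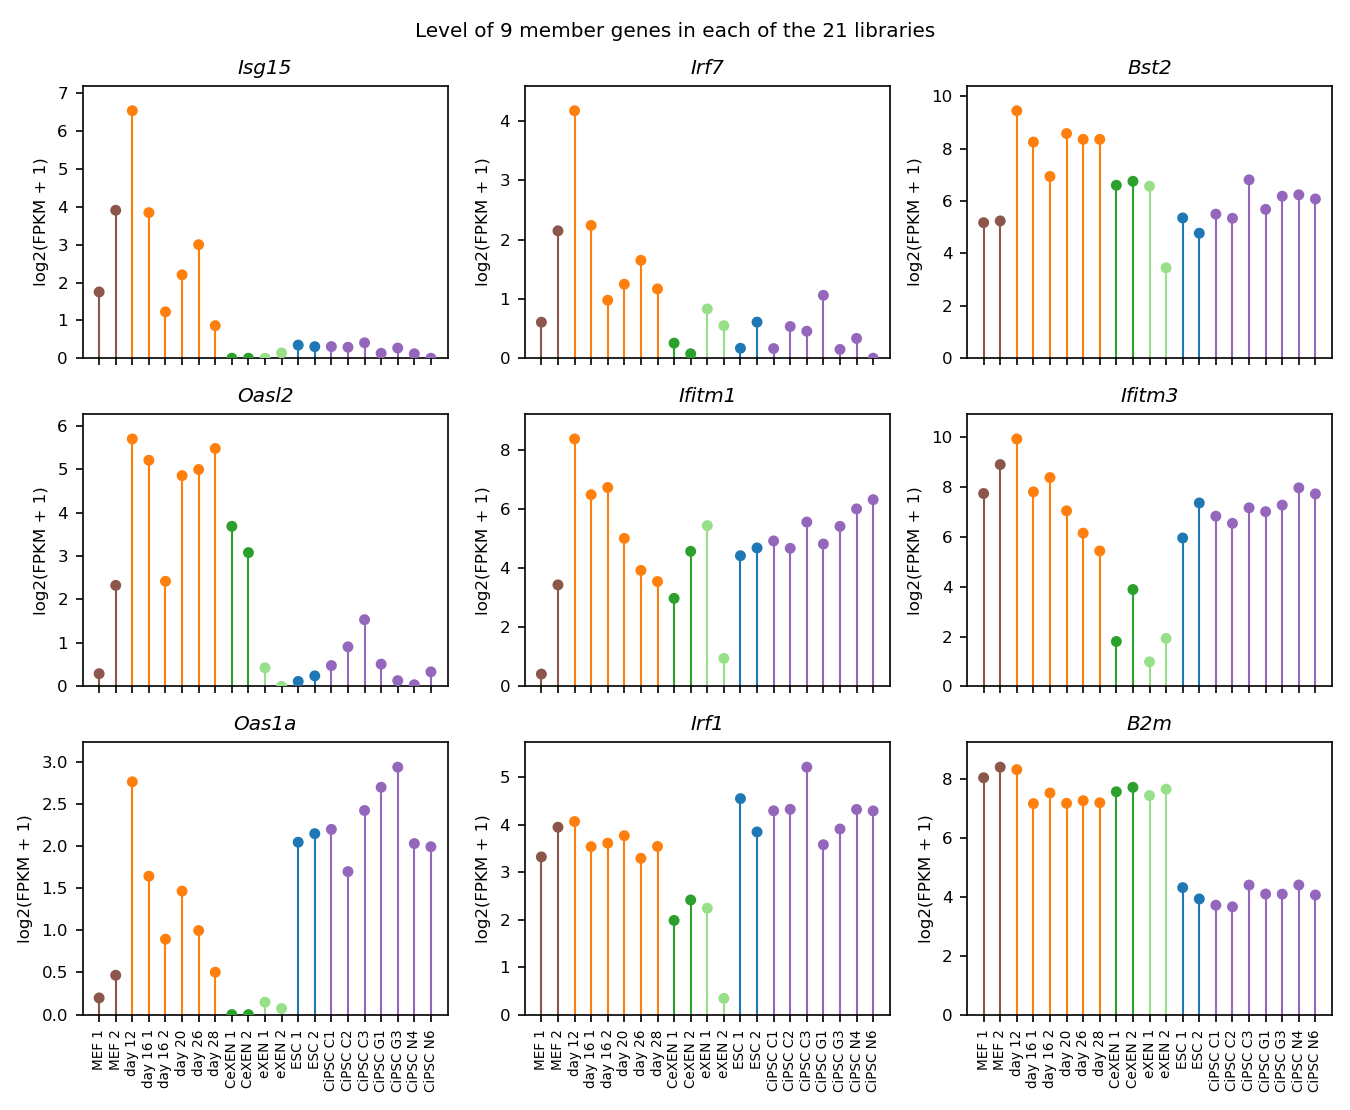
Level of 9 members, as log2(FPKM + 1), in each of the 21 libraries, with a colour per group (MEF brown, intermediates orange, CeXEN dark green, eXEN light green, ESC blue, CiPSC purple) and a separate vertical scale per gene. Isg15 and Irf7 peak at day 12, Bst2 and Oasl2 are high in all or most intermediate libraries, Oas1a and Irf1 are low in XEN cells, and B2m is low in ESCs and CiPSCs.

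Day 16 cells and the eXEN line both carry XEN markers and were compared to see where they differ. 16 of the 33 members were higher at day 16 and 0 lower, against 14% of all tested genes higher and 3.17% lower (17.1% called in all). The median over members was 1.13, and over all genes 0.23. The call fell on 10 of 16 tested effectors, 1 of 3 sensors (Ifih1), 1 of 4 transcription factors (Irf1), 3 of 6 conjugation and ADP-ribosylation genes (Isg15, Parp9 and Dtx3l) and 1 of 4 presentation genes (Psmb8). Ifitm3 was at 222 and 330 FPKM at day 16 and at 0.980 and 2.80 in eXEN cells, a difference of 6.63 ± 0.65 log2 units (adjusted p = 8.07e-06). Ifitm2 was at 370 and 240 FPKM against 27.3 and 2.73 (4.86 ± 0.65, adjusted p = 0.000113). Ifi27 was at 40.1 and 13.3 FPKM against 0.482 and 0.251 (4.15 ± 0.63, adjusted p = 0.000287).

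None of those 3 genes overlapped between the groups. Oasl2 was at 35.8 and 4.35 FPKM against 0.345 and 0 (3.60 ± 0.76), and Bst2 at 304 and 122 against 93.7 and 9.93 (2.59 ± 0.73). Psmb8, a catalytic subunit of the immunoproteasome, was at 4.99 and 10.6 FPKM at day 16 and listed at 0 in both eXEN libraries (3.06 ± 0.54), as were Ifi35 (2.83 ± 0.46) and Rtp4. Ifitm1 was at 87.9 and 104 FPKM against 42.1 and 0.927 (3.41 ± 1.14, adjusted p = 0.0439), and was not called under 7 of 12 alternatives (log2 changes down to 1.17). The other effectors that were higher were Ifit2 and Oas1a. Oas1a was not called under 6 of 12 alternatives, Dtx3l under 6 of 11 and Isg15 under 4 of 12. The presentation genes B2m (-0.20 ± 0.26), Psmb9 (-0.20 ± 0.43) and Tap1 (-0.87 ± 0.48) were not called, nor were Stat2 (0.14 ± 0.58) and Trim25 (0.07 ± 0.28). Outside the set, the feedback inhibitors Socs1 (3.02 ± 0.66) and Socs3 (3.48 ± 0.58) were higher at day 16 in a list of 16 receptor and kinase genes with 4 higher and 0 lower. Fibroblast markers, summing to 272 and 532 FPKM at day 16 and to 3.58 and 4 in eXEN cells, moved with this difference, and their part in it was not tested.
Without day 16 replicate 1 the count was 9 higher, and without eXEN replicate 2 it was 10. With quantile normalization 14 members were higher and 0 lower, while over all genes 1349 were higher and 1189 lower in place of 2326 and 527.

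The pair of eXEN libraries is the same line in different media, and some members separated them. Ifitm1 was at 42.1 FPKM in stage 1 medium and 0.927 in traditional medium, Bst2 at 93.7 and 9.93, Ifitm2 at 27.3 and 2.73, and Irf1 at 3.73 and 0.267. Ifitm3 went the other way (0.980 in stage 1 and 2.80 in traditional medium), as did Xaf1 (0.758 and 2.52) and Isg20 (0.439 and 3.32), and B2m was at 171 and 198 FPKM. Of all 36 members, 19 were higher in stage 1 medium, against 58.6% of tested genes. There is 1 library per medium, so these differences have no replicate check.

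CeXEN cells, derived in the chemical medium, were compared with the eXEN line, whose libraries also serve in the comparisons with day 16 and with ESCs. 3 of 33 members (9.09%) were called, against 6.47% of all tested genes (4.01% higher and 2.46% lower), with a median of 0.03 against 0.06. Oasl2 was at 11.9 and 7.45 FPKM in CeXEN cells against 0.345 and 0 in eXEN cells (3.17 ± 0.76, adjusted p = 0.0198). Trim25, a ubiquitin ligase that also acts on RIG-I, was at 66.8 and 80.4 FPKM against 30.3 and 18.6 (1.58 ± 0.28, adjusted p = 0.00262). Tap1, a subunit of the transporter that carries peptides to MHC class I, was lower at 0.537 and 0.831 FPKM against 11.9 and 7.41 (-2.63 ± 0.48, adjusted p = 0.00372). The groups overlapped for none of the 3, and Bst2, at 96.1 and 107 FPKM against 93.7 and 9.93, was not called (1.67 ± 0.73, adjusted p = 0.197). With quantile normalization 2 members were higher and 2 lower (488 and 492 of all genes, in place of 668 and 409), and 6 members were called without eXEN replicate 1. The Oasl2 call was lost without either CeXEN library and without eXEN replicate 2 (adjusted p up to 0.178).

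In the comparison of eXEN cells with ESCs, the embryonic lineages without reprogramming, 2 members were higher in eXEN cells and 8 lower (30.3% of 33), against 28.1% of all tested genes (9.78% higher, 18.4% lower). The median was -0.40 over members and -0.26 over all genes. Of the 4 presentation genes 2 were higher and 0 lower, and of the 16 tested effectors 0 were higher and 4 lower. B2m was at 171 and 198 FPKM in eXEN cells and 18.8 and 14.1 in ESCs (3.42 ± 0.26, adjusted p = 2.75e-07), and Tap1 at 11.9 and 7.41 against 3.26 and 1.75 (1.61 ± 0.48, adjusted p = 0.0173). Ifitm3 was lower at 0.980 and 2.80 FPKM against 60.8 and 162 (-5.20 ± 0.65, adjusted p = 3.36e-05), and Ifitm2 at 27.3 and 2.73 against 268 and 361 (-4.93 ± 0.65, adjusted p = 5.43e-05). Irf1, which drives basal expression of several antiviral and MHC genes, was at 3.73 and 0.267 FPKM against 22.4 and 13.4 (-2.91 ± 0.54). The other lower members were Parp9 (-2.08 ± 0.37), Oas1a (-1.99 ± 0.36), Ifi35 (-1.93 ± 0.46), Dtx3l (-1.79 ± 0.35) and Ddx58 (-1.39 ± 0.51).

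The groups did not overlap for any of the 10 called members, and the share of all genes without overlap was not counted. The reads of Parp9 and Dtx3l cannot be separated with certainty, since the genes overlap at their ends on chromosome 16 and the use of strand is not given in the sources used here. Among 15 tested genes of the MHC class I pathway outside the set, 3 were higher in eXEN cells and 0 lower: H2-D1, a class I heavy chain (115 and 65.7 FPKM against 12.2 and 8.28), and the chaperones Calr and Pdia3. Of the 16 receptor and kinase genes 4 were higher, among them the interferon gamma receptor chains Ifngr2 (2.38 ± 0.36) and Ifngr1 (1.91 ± 0.25), and 4 lower, among them Ptpn6 (-3.40 ± 0.61) and Socs3 (-2.25 ± 0.58). The Tap1 call was lost without eXEN replicate 1 and without ESC replicate 2 (adjusted p up to 0.13), and Ddx58 was not called under 7 of 12 alternatives. With quantile normalization 2 members were higher and 7 lower, and 2347 genes were higher and 2130 lower in place of 1628 and 3057.

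CiPSCs were set against day 16 cells, with which they share the day 16 libraries used above. 2 members rose and 11 fell (39.4% of 33), against 29.9% of all tested genes (13% higher, 17% lower), and the median was -0.73 against -0.02. B2m fell from 141 and 182 FPKM to a median of 16.0 over the 7 CiPSC lines (lowest 11.6, highest 20.0), a change of -3.28 ± 0.21 log2 units (adjusted p = 2.31e-08). Ifi27 fell from 40.1 and 13.3 FPKM to a median of 0.969 (0 to 1.58; -3.66 ± 0.50, adjusted p = 4.18e-05), and Oasl2 from 35.8 and 4.35 to a median of 0.394 (0.0264 to 1.90; -3.25 ± 0.61, adjusted p = 0.000565). The groups stood apart in each of these genes. Psmb8 fell by 2.66, Isg15 by 2.32, Ifit2 by 1.88, Isg20 by 1.64 and Bst2 by 1.62 on the log2 scale, and the smaller calls were those of Rtp4, Ifih1 and Irf7, of which only Irf7 overlapped between the groups.

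The members that rose were Ddx58, from 1.41 and 1.64 FPKM to a median of 4.76 (3.58 to 12.5; 1.5 ± 0.41, adjusted p = 0.00769), and Oas1a, from 2.12 and 0.858 to a median of 3.58 (2.24 to 6.64; 1.01 ± 0.29, adjusted p = 0.00981). Neither overlapped. Ifitm1 (-1.22 ± 0.91), Ifitm2 (0.31 ± 0.52), Ifitm3 (-0.88 ± 0.52), Irf9 (-0.31 ± 0.35) and Stat2 (0.51 ± 0.47) were not called. In the MHC class I list 3 of 15 genes fell and 0 rose: H2-D1 (-2.82 ± 0.36), H2-K1 (-2.48 ± 0.50) and the peptide-trimming protease Erap1 (-1.5 ± 0.25). Without day 16 replicate 1 the count was 7 members, with Ddx58, Isg15, Isg20, Irf7, Rtp4 and Bst2 no longer called. Oas1a, at the fold limit, was not called under 5 of 17 alternatives (log2 changes down to 0.64), namely median-of-ratios scaling and leaving out day 16 replicate 2 or line C3, G1 or G3. With quantile normalization 4 members rose and 11 fell.

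Against the MEFs, a comparison that shares the CiPSC libraries with the last and the MEF libraries with that of day 16, 3 members rose and 8 fell in CiPSCs (33.3% of 33), against 37% of all tested genes (21.7% higher, 15.3% lower). The median was -0.49 over members and 0.25 over all genes. B2m changed by -4.15 ± 0.21 (adjusted p = 1.98e-09) from 260 and 334 FPKM in MEFs, and Ifi27 (-3.92 ± 0.50), Isg15 (-2.61 ± 0.53), Ifit2 (-2.22 ± 0.15) and Psmb8 (-1.96 ± 0.43) fell too. Isg20, an exonuclease (-1.23 ± 0.46), Ifi35 (-1.19 ± 0.36, groups overlapping) and Ifih1 (MDA5, a sensor of long RNA, -1.05 ± 0.22) also fell. Isg20 was not called under 6 of 17 alternatives, among them no filter and leaving out line G1, G3, N4 or N6.

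Ifitm1 rose by 3.46 ± 0.91, to a median of 41.4 FPKM (24.3 to 78.1). Oas1a, a synthetase of the oligoadenylates that activate RNase L, rose by 1.95 ± 0.29 from 0.147 and 0.382 FPKM, and Trim25 by 1.75 ± 0.22 from 9.51 and 15.2 FPKM to a median of 41.7 (34.9 to 53.7). None of the 3 overlapped. Oas1a shares sequence with its near copy Oas1g, named here outside the rule for that reason, which rose too (1.54 ± 0.26), and reads may be split between the copies.
Of the 16 receptor and kinase genes 8 fell and 5 rose, those falling including Ifngr2 (-3.26 ± 0.29), Il10rb (-3.02 ± 0.28) and Ifngr1 (-2.38 ± 0.20). In the MHC class I list 5 of 15 fell and 1 rose, and of 5 tested MHC class II genes 3 rose, with Cd74, the invariant chain, going from 0.421 and 1.37 FPKM to a median of 5.06 (2.32 to 8.58). Markers of other cell types moved with this comparison: 11 of 15 tested macrophage markers fell and 1 rose, and 12 of 12 fibroblast markers fell. The macrophage marker Laptm5 had a mean of 61.1 FPKM in CiPSCs and 3.5 in MEFs, so it made up much of the CiPSC sum. The 18 macrophage markers summed to 159 and 78.4 FPKM in MEFs, with none at 0, and to between 41.0 and 111 in CiPSCs, with 6 to 11 at 0, and the fibroblast markers to 4760 and 14200 FPKM and to between 8.56 and 130; their part in the members' changes was not tested. Without MEF replicate 2 the split was 7 higher and 3 lower, and over all genes median-of-ratios scaling gave 2693 higher and 3128 lower in place of 3620 and 2547.

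**Figure D4:**
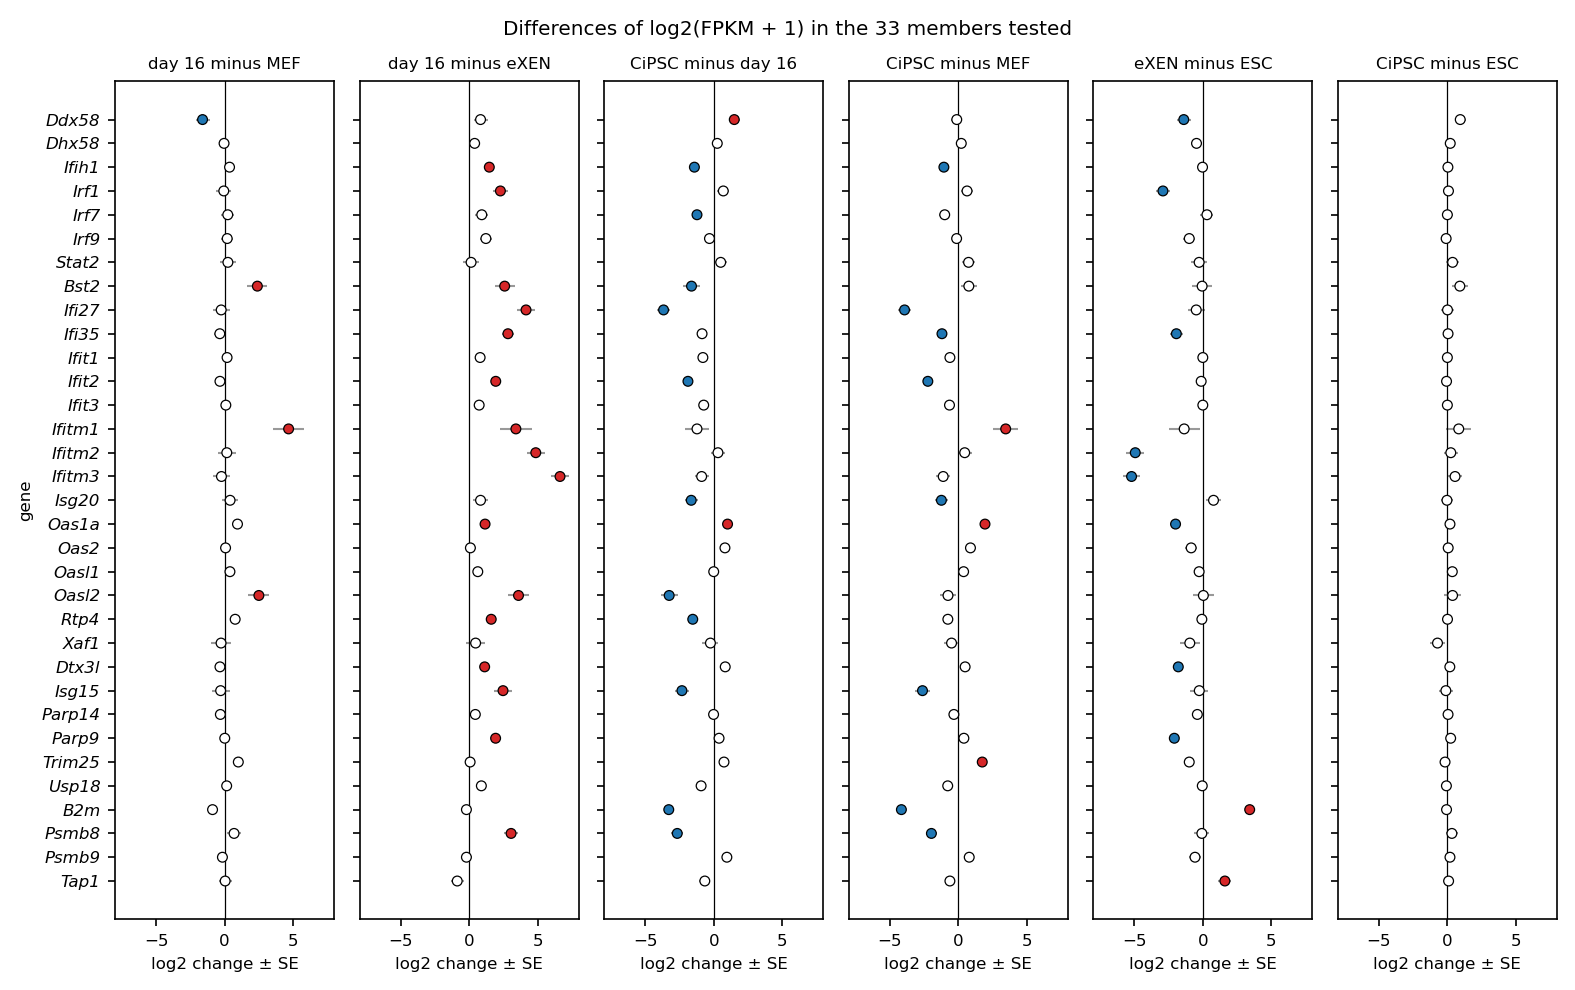
Log2 change of log2(FPKM + 1) with its SE for the 33 members tested in 6 comparisons, filled red where higher and blue where lower past the call limits and open where not called. All 16 filled points in the day 16 minus eXEN panel are red, and the CiPSC minus ESC panel holds none.

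CiPSCs and ESCs, both pluripotent, were compared directly. limma called 0 of 33 members, 1 of which was at an unadjusted p under 0.05, and 10 of 16650 genes in all (0.0601%; 0.036% higher and 0.024% lower). The member medians were 0.06, with 0.01 over all genes. The difference nearest to the threshold was that of Ddx58, at 2.13 and 3.41 FPKM in ESCs and a median of 4.76 in CiPSCs (0.94 ± 0.41, adjusted p = 0.57). B2m was at 18.8 and 14.1 FPKM in ESCs against a median of 16.0 (-0.06 ± 0.21), Ifitm3 at 60.8 and 162 against 142 (0.56 ± 0.52), and Irf1 at 22.4 and 13.4 against 18.6 (0.08 ± 0.43). The difference of largest size after Ddx58 was that of Bst2 (0.91 ± 0.59), and the lowest that of Xaf1 (-0.72 ± 0.58), which had 8.12 FPKM in ESC replicate 2 and 1.52 in replicate 1.

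The 7 CiPSC lines were then set side by side. Of the 18 members with a mean of at least 1 FPKM in CiPSCs, 8 were highest in line C3 and 9 lowest in line C2, where C3 was the highest line for 27.5% and C2 the lowest for 21.4% of 13386 genes. The SD over lines on the log2 scale was smallest for Parp9 (0.16), Dtx3l and Trim25 (0.24 each) and B2m (0.29), and largest for Ifitm1 and Ddx58 (0.62 each). Irf1 was at 36.1 FPKM in C3 and between 11.0 and 19.0 in the other lines, Bst2 at 111 in C3 and between 39.6 and 74.5, and Stat2 at 13.7 in C3 with 4.65 and 4.87 in C1 and C2. C3 had the lowest depth (0.401) and the highest fibroblast sum of the lines (130 FPKM, with 58.0 to 84.0 in G1, G3, N4 and N6 and 8.56 and 8.60 in C1 and C2), and the part of either was not tested.

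Over all 21 libraries, which share groups and culture, the closest pairs of members on the log2 scale were Ifit1 with Ifit3 (Pearson r = 0.99) and Usp18 with Rtp4 (0.98), both pairs at their highest at day 12 and near 0 in XEN and pluripotent cells. Isg15 was nearest to Rtp4 (0.95), Parp9 to its neighbour Dtx3l (0.95), and Irf1 to Ifitm2 (0.93). Trim25 was least like the rest, with a median r of -0.22 against the other members, and B2m had a median of 0.12. These values are descriptions, and reads of the Ifit and Ifitm copies, which are alike in sequence, may be shared between genes.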

How the data were processed

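RNA was measured in 21 libraries, built with NEBNext Ultra kits from RNeasy-purified total RNA per the labels. The authors deposited FPKM values, 1 table per library, made with TopHat and Cufflinks on mm10, per the submitters' processing notes (versions, gene models and strand use not given in the sources used here). Read counts were not used, and depth is relative.

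FPKM of IDs with several loci were added. A pseudocount of 1 was added before taking log2, so the differences of low genes come out too small. limma 3.58.1 (R 4.3.3), with an intensity trend and 1 coefficient per group over all 21 libraries, was fitted to the 16650 genes reaching 1 FPKM in 2 or more libraries. P-values were Benjamini-Hochberg adjusted over all of them. A call needed an adjusted p below 0.05 and a log2 change of 1 or more in either direction. Overlap between groups is given for called members, where a call already makes a gap between small groups likely. Its share over all genes was not counted. On simulated data, changes of 2 log2 units were recovered for between 75% (eXEN against ESC) and 94% (CiPSC against day 16) of genes, and for 36.5% in the trend on day. There 200 genes were changed, all genes otherwise kept their overall mean, and the noise was independent with the fitted spread within groups. Most real comparisons called far more genes, and variation between days off a straight line was not simulated. These rates therefore need not hold for the real comparisons. The members and lists were chosen with earlier results of these data known. All members were accounted for, up to 8 called per direction were named with values in each comparison, and up to 4 called genes from each other list. Markers of other cell types were summed.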

Additional observations from a re-analysis of the deposited data

Results flagged for a closer look

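Among the 7 CiPSC lines, the value of line C3 stood apart for 2 members with a mean of at least 1 FPKM. Ifi35 was at 7.57 FPKM in C3 and between 1.76 and 3.18 in the other lines, a gap to the nearest line of 0.633 of the whole range on the log2 scale, past Dixon's 95% limit for 7 samples. Oas2 was at 3.52 FPKM in C3 and between 0.175 and 0.993 in the others, a gap of 0.607. Chance flags about 1 in 20 groups, and 18 members were looked at. Below a mean of 1 FPKM the same limit was passed by Ifih1 (0.822, line G3 at 0.388 FPKM), Ifi27 (0.701, line N4 listed at 0), Mx2 (0.597) and Ifit1, all resting on values that were low or 0.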

How the results depend on the processing

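Of 57 member calls over the 7 group comparisons, 21 held under every alternative that tested them and 0 reversed. Among them were B2m in its 3 comparisons, and Ifitm3, Ifi35 and Parp9 for day 16 against eXEN. For day 16 against MEF (4 called) no filter left 1, fitting only the groups compared left 0, and leaving out a library gave 1 to 7. For CiPSC against day 16 (13 called) leave-outs gave 7 to 15. For CiPSC against MEF (11 called) a pseudocount of 0.1 gave 18, and leave-outs 10 to 15. For day 16 against eXEN (16 called) the compared groups alone gave 6, and leave-outs 9 to 18. For CeXEN against eXEN (3 called) a pseudocount of 0.1 gave 5, the compared groups alone 0, and leave-outs 2 to 6. For eXEN against ESC (10 called) leave-outs gave 8 to 11. CiPSC against ESC and the trend on day stayed at 0 throughout. The cause of these shifts was not tested, except that fits to the compared groups alone have fewer libraries. Leave-outs that left 1 library in a group assume that it varies like the others.

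Same-numbered replicates of MEF, day 16, CeXEN, eXEN and ESC did not deviate together (correlations of -0.12 to 0.05 over 10 pairs of groups), so no pairing by number was seen. With 2 libraries per group, these correlations cannot exclude a shared origin of same-numbered samples. With a replicate block the member counts were 4, 13, 12, 0, 10, 15 and 3 for day 16 against MEF, CiPSC against day 16, CiPSC against MEF, CiPSC against ESC, eXEN against ESC, day 16 against eXEN and CeXEN against eXEN. Quantile normalization moved the median of all genes from 0.22 to -0.02 for day 16 against MEF, from 0.23 to -0.07 against eXEN, and from -0.26 to 0.02 for eXEN against ESC. Depth limits the low members most: values under 1 FPKM rest on few fragments.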

Other observations

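Interferon-stimulated genes outside the set were counted in a list of 39, of which 31 passed the filter on low values. Between MEFs and CiPSCs 10 fell and 2 rose by limma, with a median of -0.64 against 0.25 over all genes (37% of which were called). Lgals3bp fell by 3.89, Irgm1, a GTPase that acts on vacuoles holding microbes, by 2.57 and Shisa5 by 2.28 on the log2 scale. From day 16 to CiPSCs 6 fell and 2 rose, where 29.9% of all genes were called, with Pml, which organises nuclear bodies, higher by 2.48 ± 0.26, from 9.94 and 13.3 FPKM to a median of 66.4 over the 7 lines (58.5 to 86.5). At day 12, a single library, Lgals3bp stood at 169 FPKM and Irgm1 at 49.7, against at most 35.9 and 13.8 in any other library. From eXEN cells to day 16, 6 of the 31 were higher and 0 lower (14% and 3.17% of all genes), led by Irgm1 (3.23 ± 0.44) and Lgals3bp (3.15 ± 0.53).

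Adaptors of nucleic acid sensing showed other patterns. Tmem173 (STING), which relays the detection of cytosolic DNA, was at 14.4 and 18.3 FPKM in MEFs, 8.59 at day 12, 1.27 and 1.96 at day 16 and at most 2.03 in pluripotent cells. It fell from MEF to day 16 by 2.73 log2 units (limma adjusted p = 2.55e-05). Zcchc3, a cofactor of nucleic acid sensors, was at 0 and 0.0201 FPKM in the eXEN libraries and between 4.24 and 4.94 in CeXEN cells (2.47 ± 0.26, limma adjusted p = 5.39e-05). It was the only call among the 18 genes of the list tested between the XEN groups, where 6.47% of all tested genes were called.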
